A study of Bactrocera dorsalis with 16 samples.

Results

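The nervous system miRNAs miR-124, miR-137 and miR-1000 were followed by small RNA sequencing in the ovary and the fat body of the oriental fruit fly, Bactrocera dorsalis. Members were all entries of the deposited table named miR-124, miR-137 or miR-1000, whatever the species prefix, arm or end suffix. There were 7 such entries with 7 different sequences, out of 788 entries and 747 sequences in all. The libraries came from adult females on a yeast and sugar diet, with ovary and fat body each taken 1, 5, 9 and 13 days after eclosion, the emergence of the adult. Each of the 8 tissue and day groups had 2 libraries, 16 in all. Nothing in the labels says how many flies were pooled or how the tissues were freed of other tissue. The replicates are labelled biological, and p-values measure the spread between these libraries.

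MicroRNAs are short RNAs that lower the output of mRNAs matching their seed, bases 2 to 8 from the 5′ end. The miRNA miR-124 is a classic neuronal miRNA of flies and mammals. The miRNA miR-137 is rich in brain and is known from mammals for its part in the maturation of neurons. The miRNA miR-1000 acts in Drosophila neurons on the vesicular glutamate transporter. Eggs form in the ovary, and the fat body stores fat and makes yolk protein. Neither is a nerve organ, although nerves reach the muscle of the insect reproductive tract. Levels of the 3 miRNAs in these dissections are therefore given as a sign of nerve tissue. In whole tissue, fewer cells of a type and less of an RNA per cell cannot be told apart.

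The sequences of miR-124 and miR-1000 as the table gives them, with T for U, 5′ to 3′ and the seed in capitals, are shown to set the members apart from each other and from their opposite hairpin arms.
bdo-miR-124: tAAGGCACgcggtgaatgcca
bdo-mir-124-p5: gGTATCCActgtaggcctatatg
bdo-miR-1000: aTATTGTCctgtcacagcagt
bdo-mir-1000-p3: cTGCTGGGccggggcattaaca
The seed of bdo-miR-124 was in 1 sequence of the table and that of bdo-miR-1000 in 1, so no other listed miRNA shared either. The seed of bdo-miR-137, ATTGCTT, was shared by 2 sequences, both of them miR-137 forms, the second being dme-miR-137-3p_R+1 with 1 more base at its 3′ end. The first 9 bases of bdo-miR-137 and bdo-miR-1000 share the run TATTG, which starts at base 1 of bdo-miR-137 and at base 2 of bdo-miR-1000, so the seeds are offset and not the same. With bdo-miR-124 the longest shared run was 2 bases for either. Each main sequence and its listed opposite arm could pair as a hairpin's arms do, with 15 of 21 bases of bdo-miR-124, 14 of 22 of bdo-miR-137 and 17 of 21 of bdo-miR-1000 paired in the duplex that RNAduplex gave.

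The values are the authors' normalised signal, and their sum ranged from 434089 to 1155600 per library. Low values were mostly whole multiples of 1 step per library, between 89.6% and 94.6% of them within a tolerance of 0.1 of a step, and a step is taken as 1 read. On that footing the listed entries came to between 193954 and 1865200 reads per library, fewest at day 5, with at most 416597 in any day 5 library. Reads of the 41 repeated entries are counted again in these totals, and reads outside the listed entries are not in them. Both libraries labelled day 9 replicate 2 stand apart from the others of their label by tissue markers. In day 9 replicate 2 as labelled ovary, the summed fat body markers (miR-8, miR-274, miR-252 and miR-958) came to 175193, against 24242 to 68248 in the other 7 ovary libraries. Its summed ovary markers came to 32956, within the 4685 to 241993 of those 7, a range that spans all days. That was below the 189101 of ovary day 9 replicate 1 and just above the 24795 and 31841 of ovary day 5. This library was thus high in fat body markers, while its ovary markers were lower than in its own replicate. In day 9 replicate 2 as labelled fat body, the summed ovary markers (miR-989, miR-318, miR-994 and the miR-92 sequences) came to 198495, against 269 to 4667 in the other 7 fat body libraries. Its summed fat body markers came to 68836, below the 155627 to 303840 of those 7. These libraries are therefore shown apart, and each test of the members is given with and without them.

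All 3 miRNAs were found in both tissues and in every library, and by mean level in both tissues miR-137 was the highest and miR-1000 the lowest. In single fat body libraries bdo-miR-1000 lay above bdo-miR-124 at day 1 replicate 1 (122 against 102) and day 13 replicate 2 (26.7 against 17.0). Leaving out the day 9 replicate 2 libraries, bdo-miR-137 averaged 214 ± 137.03 in ovary and 533 ± 229 in fat body (SD, n = 7 libraries each, over all days). It ranked 95th in ovary and 54th in fat body of the 747 sequences by mean signal, with 0.0338% of the signal in ovary and 0.0639% in fat body. The level of bdo-miR-124 averaged 79.0 ± 78.1 in ovary and 98.6 ± 59.7 in fat body, at ranks 129 and 95. The level of bdo-miR-1000 averaged 12.8 ± 10.2 in ovary and 55.5 ± 31.6 in fat body, at ranks 234 and 126. All 3 thus made up a very small share of the signal, and bdo-miR-1000 reached a value of 10 in only 5 of 8 ovary libraries.

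The other 4 members were at or near 0 and none reached a value of 10 in any library. The longer form dme-miR-137-3p_R+1 was above 0 in 5 of 8 ovary libraries, with at most 3.45, and in 7 of 8 fat body libraries, with at most 7.67. It made up between 0% and 2.69% of both miR-137 forms together in ovary and between 0% and 2.03% in fat body. The opposite arm bdo-mir-124-p5 was above 0 in 3 ovary and 2 fat body libraries, with at most 3.39. The arm bdo-mir-137-p5 was above 0 in 0 ovary and 2 fat body libraries, with at most 1.44. The arm bdo-mir-1000-p3 was above 0 in 0 ovary libraries and 1 fat body library, at 0.89. The main sequence thus stood far above its opposite arm for all 3 hairpins, and the 4 minor sequences had at most 17 reads in any library. These 4 sequences missed the filter for testing (2 or more libraries reaching 10), which 321 sequences of the series passed, bdo-miR-124, bdo-miR-137 and bdo-miR-1000 among them.

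The levels of bdo-miR-124 overlapped between ovary and fat body at 3 of the 4 days. In ovary they were 125 and 237 at day 1, 62.1 and 31.7 at day 5, 46.8 in replicate 1 of day 9, and 36.0 and 14.5 at day 13, while in day 9 replicate 2 as labelled ovary the level was 48.2. In fat body they were 102 and 136 at day 1, 206 and 69.0 at day 5, 69.3 in replicate 1 of day 9, and 90.7 and 17.0 at day 13, with 24.0 in day 9 replicate 2 as labelled fat body. The highest ovary values stood at day 1, the lowest single value was at day 13, the libraries of days 5 and 13 overlapped, and only at day 5 did both ovary libraries lie below both fat body libraries. Replicates of bdo-miR-124 lay far apart in fat body, by 2.95-fold at day 5 and 5.10-fold at day 13 on the scale of value + 1, where the median of all tested sequences was 1.46-fold and 1.32-fold.

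The levels of bdo-miR-137 were lower in ovary than in fat body, without overlap, at days 1, 5 and 13. In ovary they were 250.0 and 450 at day 1, 292 and 223 at day 5, 129 in replicate 1 of day 9, and 118 and 32.5 at day 13, with 268 in day 9 replicate 2 as labelled ovary. In fat body they were 840 and 851 at day 1, 528 and 369 at day 5, 488 in replicate 1 of day 9, and 387 and 268 at day 13, with 81.8 in day 9 replicate 2 as labelled fat body. That last value was below all the other fat body libraries, and the ovary day 9 replicate 2 value was above that of its own replicate. The ovary replicates at day 13 differed by 3.56-fold, against a median of 1.48-fold over tested sequences. How many of all tested sequences parted the tissues without overlap at days 1, 5 and 13 was not counted.

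The levels of bdo-miR-1000 parted the tissues in the same way at lower values. In ovary they were 12.2 and 32.5 at day 1, 18.4 and 12.4 at day 5, 6.24 in replicate 1 of day 9, and 4.84 and 2.71 at day 13, with 22.8 in day 9 replicate 2 as labelled ovary. In fat body they were 122 and 61.1 at day 1, 39.9 and 59.8 at day 5, 36.1 in replicate 1 of day 9, and 43.6 and 26.7 at day 13, with 6.55 in day 9 replicate 2 as labelled fat body. Both ovary libraries lay below both fat body libraries at days 1, 5 and 13, and the tissues overlapped at day 9. As for bdo-miR-137, the share of all tested sequences with that order was not counted. The ovary values at day 13 stand for 11 and 3 reads and those at day 5 for 8 and 11, so counting error is large there.

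**Figure D1:**
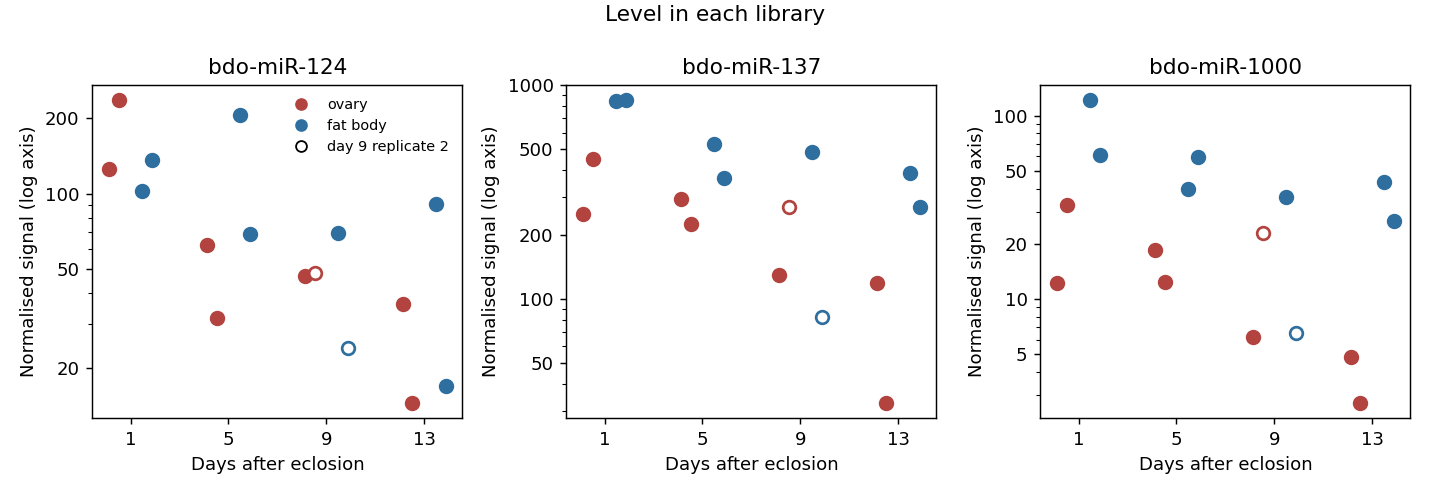
Normalised signal (log axis) of the 3 main sequences in each library, by days after eclosion, with ovary left of fat body at each day; each point is 1 library and open points are the libraries labelled day 9 replicate 2. For bdo-miR-137 and bdo-miR-1000 the ovary points lie below the fat body points at days 1, 5 and 13, and for bdo-miR-124 they do so at day 5.

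The 4 days were first averaged with equal weight and ovary set against fat body, to see whether the tissues differ in the nerve miRNAs. The miRNA miR-1000 was 3.33-fold lower in ovary and miR-137 was 2.21-fold lower. For bdo-miR-1000 the difference, ovary minus fat body in log2(value + 1), was -1.74 (SE 0.43, 95% interval -2.67 to -0.80, limma adjusted p = 0.0101, 8 libraries per tissue). For bdo-miR-137 it was -1.14 (SE 0.40, 95% interval -2.004 to -0.28, adjusted p = 0.0377), and for bdo-miR-124 it was -0.35 (SE 0.43, 95% interval -1.28 to 0.57, adjusted p = 0.559). That last interval spans 0 but is wide, so it does not show equal levels, and with library totals as the scale the value was 0.023. Of the 3 tested members 2 were called lower in ovary, where 12.5% of all 321 tested sequences were. Over all of these, 79 were called higher and 40 lower in ovary, against 104 and 19 with library totals, which moved the median of all tested sequences by 0.35.

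Without both day 9 replicate 2 libraries, the differences were -2.24 for bdo-miR-1000 (SE 0.36, limma adjusted p = 0.000353), -1.60 for bdo-miR-137 (SE 0.30, adjusted p = 0.00109) and -0.55 for bdo-miR-124 (SE 0.46, adjusted p = 0.333). In that fit 19.6% of the tested sequences were called lower in ovary. The call of bdo-miR-1000 was kept in all 16 fits that left out 1 library each, with adjusted p between 0.000702 and 0.0314. The call of bdo-miR-137 was kept in 4 of those 16, with adjusted p between 0.00135 and 0.092, the 4 being those without ovary day 1 replicate 2, ovary day 9 replicate 2, fat body day 9 replicate 2 or ovary day 13 replicate 1. It was also lost with library totals (adjusted p = 0.141) or TMM (adjusted p = 0.0523) as the scale, without the filter on low values (adjusted p = 0.0633) and without the intensity trend (adjusted p = 0.0501).

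The same comparison was then made day by day, 2 libraries against 2. At day 13, bdo-miR-1000 averaged 3.78 ± 1.51 in ovary and 35.2 ± 11.9 in fat body (SD, n = 2 each), a difference of -2.92 in log2(value + 1) (SE 0.87, limma adjusted p = 0.0171). At the same day bdo-miR-137 averaged 75.4 ± 60.6 in ovary and 327 ± 83.5 in fat body, a difference of -2.35 (SE 0.80, limma adjusted p = 0.0295). Both were called lower in ovary, where 14.3% of all tested sequences were, and so they were without both day 9 replicate 2 libraries (adjusted p = 0.00302 for bdo-miR-1000 and 0.00394 for bdo-miR-137), where 19.6% were. The level of bdo-miR-124 averaged 25.3 ± 15.3 in ovary and 53.9 ± 52.1 in fat body, a difference of -0.76 (SE 0.86, limma adjusted p = 0.489). The call of bdo-miR-1000 at day 13 was lost without ovary day 13 replicate 2 (adjusted p = 0.0857) or fat body day 13 replicate 1 (adjusted p = 0.0982). The call of bdo-miR-137 was lost without either of these (adjusted p = 0.223 and 0.134) and without fat body day 13 replicate 2 (adjusted p = 0.0748).

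At days 1 and 5, none of the 3 tested members was called by limma, with 1 of the 3 at an unadjusted p under 0.05 at day 1 and 0 of the 3 at day 5. Of all tested sequences 3.12% were called in either direction at day 1 and 2.18% at day 5, with 15% and 25.2% at an unadjusted p under 0.05. The differences at day 1 were -2.05 for bdo-miR-1000 (adjusted p = 0.272), -1.33 for bdo-miR-137 (adjusted p = 0.476) and 0.54 for bdo-miR-124 (adjusted p = 0.894). At day 5 they were -1.63 for bdo-miR-1000 (adjusted p = 0.261), -0.79 for bdo-miR-137 (adjusted p = 0.627) and -1.41 for bdo-miR-124 (adjusted p = 0.338). For bdo-miR-1000 at day 1 the interval was -3.93 to -0.18, so the size was not well fixed with 2 libraries per group. Without both day 9 replicate 2 libraries the differences at these days were the same and the pooled spread was smaller, but no member was called by limma. The adjusted p at day 1 was then 0.0537 for bdo-miR-1000, 0.143 for bdo-miR-137 and 0.777 for bdo-miR-124, with 2 of the 3 at an unadjusted p under 0.05, and 18.1% of tested sequences were called and 26.8% had an unadjusted p under 0.05. At day 5 it was 0.089 for bdo-miR-1000, 0.34 for bdo-miR-137 and 0.253 for bdo-miR-124, with 1 of the 3 at an unadjusted p under 0.05, and 27.4% of tested sequences were called and 37.1% had an unadjusted p under 0.05.

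At day 9 the tissues overlapped for all 3 members. The differences were -0.35 for bdo-miR-1000, -0.11 for bdo-miR-137 and 0.21 for bdo-miR-124, each with a limma adjusted p of 0.994, and that of bdo-miR-137 was 0.17 with library totals and 0.19 with TMM. None of the 321 sequences was called by limma at day 9 (0%), and 1 had an unadjusted p under 0.05 (0.312%), while 0 of the 3 members did. Between the replicate 1 libraries alone, bdo-miR-137 was 129 in ovary and 488 in fat body, and bdo-miR-1000 was 6.24 in ovary and 36.1 in fat body. Without the replicate 2 libraries the differences at day 9 were -2.36 for bdo-miR-1000 (limma adjusted p = 0.0707), -1.91 for bdo-miR-137 (adjusted p = 0.0814) and -0.56 for bdo-miR-124 (adjusted p = 0.745), with 1 library per tissue that was assumed to vary like the other groups. None of the 3 was called, and 2 of the 3 had an unadjusted p under 0.05. In that fit 111 of the 321 sequences were called at day 9, 80 higher and 31 lower in ovary (34.6%), and 45.2% had an unadjusted p under 0.05.

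**Figure D2:**
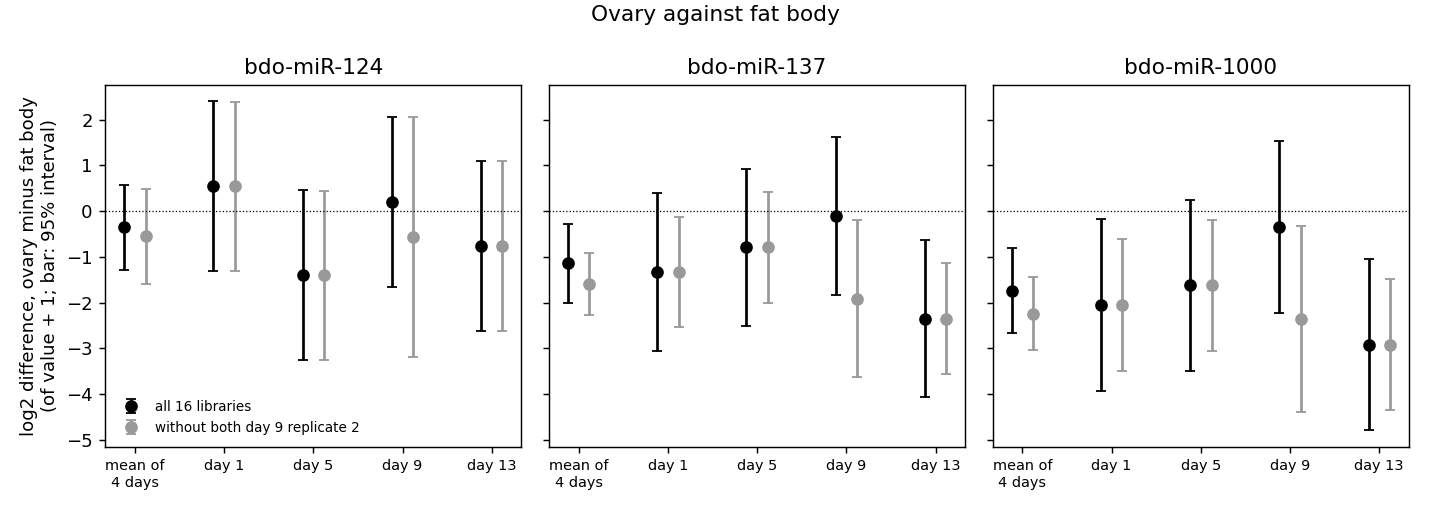
Difference of the 3 main sequences, ovary minus fat body, in log2(value + 1) with 95% intervals, averaged over the 4 days and day by day. Black points use all 16 libraries and grey points leave out both day 9 replicate 2 libraries; the black intervals of bdo-miR-1000 and bdo-miR-137 lie below 0 for the average and at day 13, and that of bdo-miR-1000 at day 1. The grey ones lie below 0 in all 5 cases for bdo-miR-1000 and in all but day 5 for bdo-miR-137, and both kinds span 0 for bdo-miR-124.

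Day 13 was compared with day 1 within each tissue, to see whether the nerve miRNAs change as the ovary matures. In ovary, miR-124 was 7.23-fold lower at day 13 and miR-137 was 5.32-fold lower. The level of bdo-miR-124 averaged 25.3 ± 15.3 at day 13 and 181 ± 79.0 at day 1 (SD, n = 2 each), a difference of -2.85 in log2(value + 1) (SE 0.86, limma adjusted p = 0.0239). The level of bdo-miR-137 averaged 75.4 ± 60.6 at day 13 and 350.2 ± 142 at day 1, a difference of -2.41 (SE 0.80, limma adjusted p = 0.0367). The level of bdo-miR-1000 averaged 3.78 ± 1.51 at day 13 and 22.4 ± 14.3 at day 1, a difference of -2.18 that did not pass (SE 0.87, limma adjusted p = 0.0705) and that passed without both day 9 replicate 2 libraries (adjusted p = 0.0163). In that fit the adjusted p was 0.0152 for bdo-miR-124 and 0.00401 for bdo-miR-137. In ovary 2 of the 3 members were called lower at day 13, where 9.66% of all tested sequences were, and without both day 9 replicate 2 libraries 3 of 3, where 18.1% were.

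These ovary calls rest on few libraries. The call of bdo-miR-124 was lost without ovary day 1 replicate 2 (limma adjusted p = 0.158) or ovary day 13 replicate 2 (adjusted p = 0.166). The call of bdo-miR-137 was kept in 9 of 16 fits that left out 1 library, and its highest adjusted p was 0.26, without ovary day 13 replicate 2. With library totals or TMM as the scale, all 3 members were called lower in ovary at day 13. The median difference of all tested sequences was 0.33 in the deposited scaling, -0.29 with library totals and 0 with TMM, and the 3 members lay below it under each scaling. Calls over all tested sequences were 73 higher and 31 lower in the deposited scaling, 52 and 64 with library totals and 60 and 44 with TMM.

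In fat body, the day 13 levels of all 3 members also lay below those of day 1 on average, but none was called by limma, and 0 of the 3 had an unadjusted p under 0.05. The level of bdo-miR-124 averaged 53.9 ± 52.1 at day 13 and 119 ± 24.4 at day 1 (SD, n = 2 each), with a difference of -1.55 (SE 0.86, limma adjusted p = 0.279). The level of bdo-miR-137 averaged 327 ± 83.5 at day 13 and 846 ± 7.25 at day 1, with a difference of -1.39 (SE 0.80, limma adjusted p = 0.299). The level of bdo-miR-1000 averaged 35.2 ± 11.9 at day 13 and 91.3 ± 42.7 at day 1, with a difference of -1.31 (SE 0.87, limma adjusted p = 0.374). Both fat body libraries of day 13 were below both of day 1 for each of the 3. How many of all tested sequences had that order was not counted, so it is given as description only. In fat body 6.85% of tested sequences were called in either direction, 20 higher and 2 lower (3 and 7 with library totals, 3 and 1 with TMM), and 22.7% had an unadjusted p under 0.05. Without both day 9 replicate 2 libraries the adjusted p was 0.193 for bdo-miR-124, 0.0839 for bdo-miR-137 and 0.157 for bdo-miR-1000, and 1 of the 3, bdo-miR-137, had an unadjusted p under 0.05. In that fit 24.3% of tested sequences were called, 56 higher and 22 lower, and 40.5% had an unadjusted p under 0.05.

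Over all 4 days, no tested member was called by the joint limma test for any change in ovary (adjusted p = 0.0902 for bdo-miR-124, 0.107 for bdo-miR-137 and 0.198 for bdo-miR-1000), where 27.1% of tested sequences were. At an unadjusted p under 0.05 there were 2 of the 3 members and 44.5% of tested sequences. Without both day 9 replicate 2 libraries bdo-miR-137 was called in ovary (limma adjusted p = 0.0144), but neither bdo-miR-1000 (adjusted p = 0.0507) nor bdo-miR-124 (adjusted p = 0.0656). All 3 of the 3 then had an unadjusted p under 0.05, and 54.8% of tested sequences were called and 62% had an unadjusted p under 0.05. In fat body no member was called either (adjusted p between 0.195 and 0.26), where 16.5% of tested sequences were, and 0 of the 3 had an unadjusted p under 0.05, as 34.3% of tested sequences did. The fat body adjusted p without both day 9 replicate 2 libraries was 0.363 for bdo-miR-124, 0.232 for bdo-miR-137 and 0.362 for bdo-miR-1000, with 0 of the 3 at an unadjusted p under 0.05, and 30.5% of tested sequences were called and 46.7% had an unadjusted p under 0.05. The change over days was not shown to differ between ovary and fat body. The interaction of tissue and day had limma adjusted p of 0.448 for bdo-miR-1000, 0.47 for bdo-miR-137 and 0.584 for bdo-miR-124, with 0 of the 3 at an unadjusted p under 0.05. Of tested sequences 11.2% were called and 24.3% had an unadjusted p under 0.05. With both day 9 replicate 2 libraries left out, the adjusted p was 0.709 for bdo-miR-1000, 0.433 for bdo-miR-137 and 0.598 for bdo-miR-124, again with 0 of the 3 at an unadjusted p under 0.05, while 30.2% of tested sequences were called and 40.5% had an unadjusted p under 0.05.

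**Figure D3:**
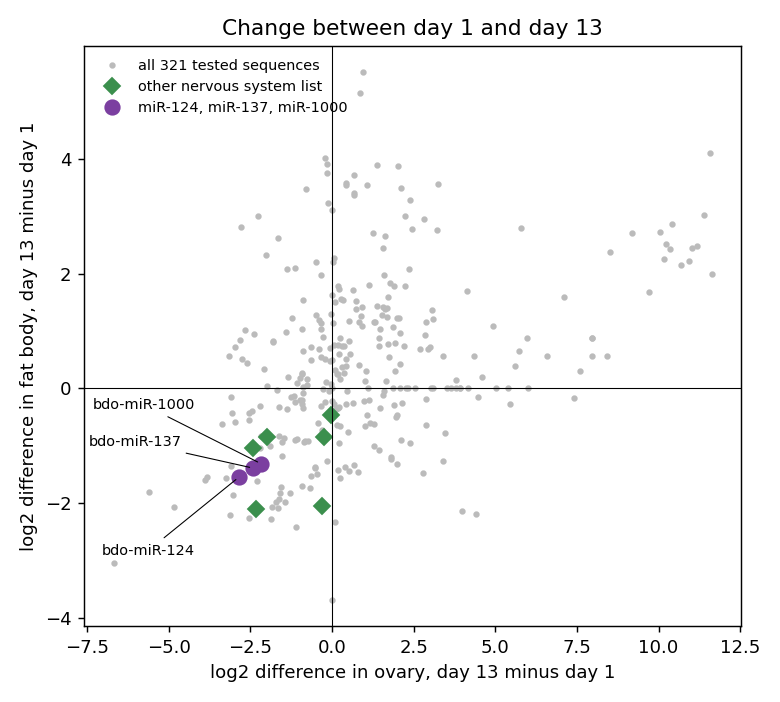
Difference between day 13 and day 1 in log2(value + 1), in ovary (x axis) and in fat body (y axis), for the 321 tested sequences (grey), the other nervous system list (green diamonds) and the 3 main sequences (purple). The 3 main sequences lie at -2.85, -2.41 and -2.18 in ovary and at -1.55, -1.39 and -1.31 in fat body, and the 6 tested sequences of the list also lie below 0 on both axes.

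The ratio of 2 members within a library does not depend on how the library was scaled, and the 3 nerve miRNAs did not keep 1 ratio. The ratio of bdo-miR-1000 to bdo-miR-124 was 0.0977 to 0.393 with a median of 0.137 in ovary, and 0.194 to 1.57 with a median of 0.521 in fat body, over 7 libraries each without day 9 replicate 2. All but 1 of these fat body libraries, the first of day 5, lay above every ovary library. The ovary values of bdo-miR-1000 in these ratios stand for 3 to 66 reads, so counting error is large there. The ratio of bdo-miR-137 to bdo-miR-124 was 1.90 to 7.04 in ovary, with a median of 2.76, and 2.57 to 15.8 in fat body, with a median of 6.23, and the tissues overlapped. At day 1 this ratio was 2.0 and 1.90 in ovary and 8.24 and 6.23 in fat body, while at day 5 it was 4.70 and 7.04 in ovary and 2.57 and 5.36 in fat body.

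The ratio of bdo-miR-137 to bdo-miR-1000 varied least. It was 12.0 to 24.4 in ovary, with a median of 17.9, and 6.18 to 13.9 in fat body, with a median of 10.04. Only the ovary libraries of day 1 replicate 2 and day 13 replicate 2 fell inside the fat body range, and the latter holds 3 reads of bdo-miR-1000. In the libraries labelled day 9 replicate 2, the ratio of bdo-miR-1000 to bdo-miR-124 was 0.472 in ovary and 0.273 in fat body, and the ratio of bdo-miR-137 to bdo-miR-1000 was 11.8 in ovary and 12.5 in fat body. No test was made on these ratios, which were looked at after the levels were known.

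**Figure D4:**
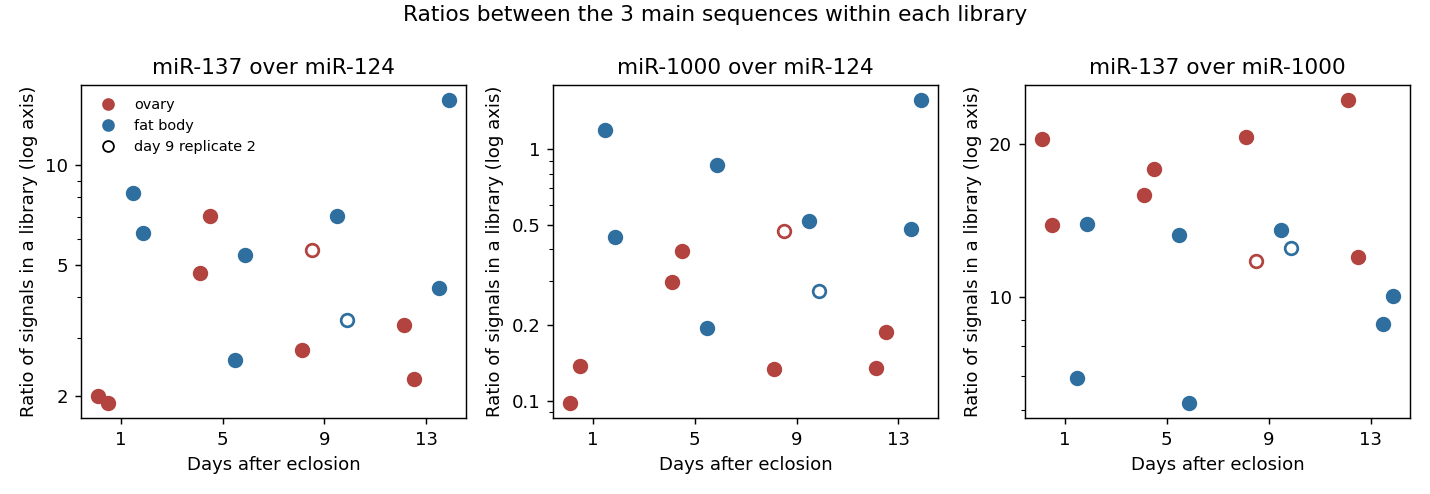
Ratio of the signals of 2 main sequences within each library (log axis), by days after eclosion, with ovary left of fat body; each point is 1 library and open points are the libraries labelled day 9 replicate 2. The ratio of miR-1000 to miR-124 has a median of 0.137 in ovary and 0.521 in fat body without the open points.

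Other miRNAs of the nervous system, a list of miR-210, miR-219, miR-315, miR-929, miR-932, miR-987 and miR-1017, known from heads, eyes or brains of flies, were set beside the members. The list had 18 sequences, of which 6 passed the filter, and miR-1017 had no entry. With the 4 days averaged, 40 of all 321 tested sequences were called lower in ovary by limma and 79 higher. The median difference of the list was -0.44, against 0.20 over all tested sequences. With all 16 libraries, 0 of its 6 tested sequences were called lower and 1 was called higher. That one, named like the others of this list after its value was seen, was bdo-miR-932, known in Drosophila to act on neuroligin, with a difference of 1.72 (adjusted p = 0.00685), opposite to the members. Without both day 9 replicate 2 libraries, which leaves 1 library per tissue at day 9, some of the 6 were called lower. In that fit 5 of the 6 differences were negative, as were 131 of all 321. Among the 5 were bdo-miR-315 (-1.14), bdo-miR-219_R-2 (-1.11) and bdo-miR-210_R-2 (-1.52). The list median was then -0.74 against 0.38 over all tested sequences.

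Between day 13 and day 1 in ovary, bdo-miR-315 (-2.41, limma adjusted p = 0.0287) and dme-miR-987-5p_R-1 (-2.33, adjusted p = 0.0374) were called lower, 2 of the 6. Of all tested sequences 9.66% were called lower there. The list median was -1.15 against 0.33 over all tested sequences. In fat body 0 of the 6 were called, where 6.85% of all tested sequences were in either direction. The list median there was -0.94 against 0.27 over all tested sequences. All 6 differences were negative in fat body, as were 125 of all 321. The summed level of the list was 88.6 to 342 in ovary and 88.7 to 310 in fat body over 8 libraries each.

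Muscle is another tissue that a dissection could hold, and its marker miR-1 was followed beside the members. Averaged over the days, bdo-miR-1 was lower in ovary than in fat body (difference -1.77, limma adjusted p = 0.0114), and between day 13 and day 1 its difference was -2.39 in ovary (adjusted p = 0.0616) and 0.95 in fat body (adjusted p = 0.582). Leaving out both day 9 replicate 2 libraries, its average difference was -2.55 (limma adjusted p = 1.29e-08), and day 13 against day 1 was called lower in ovary (adjusted p = 1.14e-06) and higher in fat body (adjusted p = 0.00223). The level of bdo-miR-1 was 20886 and 20282 in ovary at day 1, 19901 and 19197 at day 5, 4400 in replicate 1 of day 9, and 3496 and 4427 at day 13, with 38734 in day 9 replicate 2 as labelled ovary. In fat body it was 42300 and 41188 at day 1, 36961 and 35205 at day 5, 66875 in replicate 1 of day 9, and 79036 and 82675 at day 13, with 7946 in day 9 replicate 2 as labelled fat body. It thus had lower values in ovary than in fat body at days 1, 5 and 13, as bdo-miR-137 and bdo-miR-1000 did, but in fat body its day 13 values lay above those of day 1, where the nerve miRNAs lay below.

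Of the 6 muscle sequences, 4 passed the filter and 3 were called lower in ovary for the average of the days, where 12.5% of all tested sequences were. Their median difference was -1.63, against -2.39 without both day 9 replicate 2 libraries. The summed level of the muscle list was 3962 to 23622 in ovary and 40614 to 89872 in fat body without those libraries, and the tissues did not overlap. It was 43281 in day 9 replicate 2 as labelled ovary and 8763 in that as labelled fat body. How many of all tested sequences parted the tissues without overlap was not counted. The list's other miRNA, miR-133, was at or near 0, with at most 4.33 in any library. The ovary markers moved as well. Between day 13 and day 1 in ovary, 7 of the 11 tested ovary markers were called higher, where 73 of all 321 tested sequences were. Their median difference was 5.4, against 0.33 over all tested sequences. The part of muscle, of ovary RNA and of library depth in the levels of the nerve miRNAs was not tested.

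The sequences whose pattern was most like each member were ranked by the root mean square difference of log2(value + 1), each sequence centred on its own mean, over the 14 libraries outside day 9 replicate 2. For bdo-miR-124 they were dme-miR-987-5p_R-1 (0.66), bdo-miR-10 (0.71) and dme-miR-13a-3p_R+1 (0.78), where the median over all tested sequences of other numbers was 1.82. For bdo-miR-137 they were bdo-miR-315 (0.39), dme-miR-276b-3p_R+1 (0.60) and dme-miR-13a-3p_R+1 (0.60), with a median of 1.81. For bdo-miR-1000 they were bdo-miR-981 (0.59), bdo-miR-87_R-2 (0.61) and bdo-mir-276b-p3 (0.71), with a median of 1.95. Between members the difference was 0.53 for bdo-miR-137 and bdo-miR-1000, 0.85 for bdo-miR-124 and bdo-miR-137 and 1.16 for bdo-miR-124 and bdo-miR-1000. The patterns of miR-137 and miR-1000 were thus nearer to each other than either was to that of miR-124.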

How the data were processed

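Total RNA was extracted with Trizol and made into small RNA libraries sequenced on an Illumina HiSeq instrument, and reads of adapter dimers, low complexity, structural RNAs and repeats were removed with ACGT101-miR, per the labels' protocols. No source used here names the aligner, the genome build or the scaling. The authors deposited 1 table of normalised signal per mature sequence, marked norm per the file headers. The 41 repeated entries of a sequence held the same values and were summed. Sequences that reached 10 in 2 or more libraries entered the test, limma 3.58.1 in R 4.3.3 on log2(value + 1), with 8 group means, an intensity trend, 8 residual and 4.91 prior degrees of freedom, and Benjamini-Hochberg adjustment over all 321 tested sequences (threshold 0.05). Folds are of value + 1 and understate changes of low values. The method was tested on simulated data with tissue differences only and the same spread in all groups. That setting covers neither the wider spread between replicates at day 9 nor the comparisons between days. ViennaRNA 2.7.2 gave the duplexes. Most alike were the 3 sequences of other numbers with the smallest difference. Members and lists were chosen with earlier results of these data known. Alternatives were a pseudocount of 10, no filter, library totals, TMM (unweighted), no day 9 replicate 2 libraries, 1 library left out, a replicate block, repeated entries counted once and no trend. Groups came from the sample titles. Step sizes give approximate read numbers only, and PCR copies were not told apart.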

Additional observations from a re-analysis of the deposited data

How the results depend on the processing

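Of the 3 tested members, the number called over the mean of the days was 2, and it was 1 without the filter on low values, with library totals, with TMM or without the intensity trend. At day 13 it was 2, and 1 with library totals. For day 13 against day 1 in ovary it was 2, and 1 without the filter. For any change over days in ovary it was 0, against 2 with library totals and 1 without both day 9 replicate 2 libraries. The direction turned in 4 cases, none of them called: bdo-miR-124 over the mean of the days was 0.023 with library totals, bdo-miR-137 at day 9 was 0.17 with library totals and 0.19 with TMM, and bdo-miR-124 at day 9 was -0.56 without both day 9 replicate 2 libraries. The cause was not tested. Leaving out 1 library in turn gave 1 to 2 members called for the mean of the days, 0 to 2 at day 13, 0 to 3 for day 13 against day 1 in ovary, 0 to 2 for any change over days in ovary and in fat body, 0 to 1 for the interaction, and 0 in all 16 fits at days 1, 5 and 9 and for day 13 against day 1 in fat body. In those fits the difference ranged from -1.39 to 1.17 for bdo-miR-137, from -1.50 to 0.80 for bdo-miR-1000 and from -0.54 to 0.96 for bdo-miR-124 at day 9, and from -1.94 to 0.41 for bdo-miR-124 at day 13. Over the alternatives other than leaving out 1 library, member results kept direction and side of the threshold 224 times, lost a call 6 times, gained one 6 times and turned direction 4 times.

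Samples that share a replicate number were not taken as pairs. The correlation of their deviations over tested sequences lay between -0.753 and 0.362 and was above 0.1 in 9 of 28 pairs of groups. Between ovary and fat body of the same day it was 0.083 at day 1, 0.248 at day 5 and 0.089 at day 13. At day 9, which holds the libraries labelled day 9 replicate 2, it was -0.753. With the replicate block, 2 members were called over the mean of the days, 2 at day 13, 2 for day 13 against day 1 in ovary and 0 in the other comparisons, as without it. The count test on recovered reads was not run, because fewer than 95% of low values were whole steps. The value of bdo-miR-1000 in ovary is limited by depth, with 3 to 66 reads per library.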

Other observations

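The ratio of the muscle miRNA bdo-miR-1 to the nerve miRNA bdo-miR-137 was 29.6 to 136 in ovary and 48.4 to 308 in fat body over 7 libraries each, without day 9 replicate 2. In ovary it was 83.5 and 45.0 at day 1, 68.1 and 86.1 at day 5, 34.1 in replicate 1 of day 9, and 29.6 and 136 at day 13. In fat body it was 50.3 and 48.4 at day 1, 70.0 and 95.3 at day 5, 136.9 in replicate 1 of day 9, and 204 and 308 at day 13. The fat body values of days 9 and 13 thus lay above those of days 1 and 5. In ovary the values of days 1, 5 and 13 overlapped, and that of day 9 lay below those of days 1 and 5 and within the day 13 range.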
